A study of Mus musculus with 81 samples.

Results

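Thymic epithelial genes are the 10 genes Prss16, Psmb11, Tbata, Ccl25, Dll4, Ly75, Krt8, Foxn1, Aire and Krt5, chosen by symbol as markers of the cortical and medullary epithelium of the thymus, out of 51826 genes in the count table. All 10 symbols were found, each once. The samples were 81 RNA libraries of frozen thymic tissue from 40 mice on a mixed C57BL/6 and 129S4Sv/Jae background, in a study of how aneuploidy affects tumour development. All animals, controls included, had Plk4 (the kinase that drives centriole duplication) as an inducible transgene at Col1a1, and at Rosa both the doxycycline-dependent activator rtTA and centrin-GFP, a centriole reporter. The normal group was untreated p53+/+ thymus (8 mice, 1 library each). The lymphomas were untreated p53-/- (10 mice, 23 libraries), doxycycline-treated p53-/- (9 mice, 18 libraries) and doxycycline-treated p53+/- (12 mice, 31 libraries), where treatment lasted 2 weeks from 30 days of age. By label, males were 4 of 8 normal, 9 of 10 untreated p53-/-, 4 of 9 treated p53-/- and 3 of 12 treated p53+/- mice. Labelled sex was thus uneven between the groups, and it entered the fits as a covariate. An untreated p53+/- normal thymus, mouse 819, is the single animal of its kind. It entered no main test and was added to the normals only in an alternative fit. Ages at collection are not given in the labels used here, and no group was untreated p53+/- lymphoma or treated normal thymus.

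The thymus is built on epithelial cells. In the cortex they attract lymphoid progenitors, commit them to the T lineage through Notch ligands and present peptides, made by their own proteases and proteasome, on which developing T cells are positively selected; in the medulla they display tissue-restricted antigens under the control of Aire, against which self-reactive cells are deleted. A T-cell lymphoma of the thymus grows in and around this tissue, so that RNA of a whole tumour piece holds lymphoma cells together with any thymic epithelium still present.

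Values are CPM, the count of a gene as a share of the library's total in the table, with all libraries brought to the same total. Library totals ran from 5009294 to 19717131 counts in normal thymus, 10014697 to 24418188 in untreated p53-/- lymphoma, 1030429 to 19528893 in treated p53-/- lymphoma and 3810431 to 26871781 in treated p53+/- lymphoma. In 13 tumours 4 or 5 biopsies were sequenced (54 libraries); these were summed per mouse for every comparison between groups, and the mouse is the replicate. A total of 3 counts in a mouse corresponds to between 0.0304 and 0.599 CPM, the level that a count of 0 allows, and intervals and floors cover counting error only. Some libraries stood apart. Normal mouse 387 had a summed adipocyte marker level of 7916 CPM against at most 3854 CPM in the other 7 normals, a B-cell marker level of 1255 CPM against 155 CPM or less, and a thymocyte marker level of 870 CPM against at least 5379 CPM. The tumour of mouse 562 (untreated p53-/-) had a summed muscle marker level of 2041 CPM against at most 34.04 CPM in the other 30 lymphomas. The labelled sex went against sex-linked expression in 3 of 40 mice, and the tumour of mouse 881 had a summed B-cell marker level of 3263 CPM against at most 448 CPM in the other 30 lymphomas, with a thymocyte marker sum of 190 CPM against at least 649 CPM. Results that turn on these animals are given with and without them.

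In the annotation of build GRCm38 (GENCODE M21) all 10 are protein-coding genes. Psmb11 lies at chr14:54621433-54629556 on the plus strand, Prss16 at chr13:22002173-22009742 on the minus strand, Tbata at chr10:61171954-61188841 on the plus strand, Ccl25 at chr8:4325210-4360020 on the plus strand and Dll4 at chr2:119325784-119335962 on the plus strand. Ly75 lies at chr2:60292103-60383303, Krt8 at chr15:101996698-102004482, Foxn1 at chr11:78357577-78386558, Aire at chr10:78030022-78043610 and Krt5 at chr15:101707070-101712898, all on the minus strand. Exons of 6 of them overlap exons of another gene, from 1.75% of the exon bases of Aire (with Dnmt3l) to 5.87% of those of Krt5 (with Gm44323). The strand setting of the counting is not given in the sources used here, so reads in these stretches cannot be assigned to 1 gene.

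Foxn1, the forkhead factor without which thymic epithelium does not mature, is known to bind a core of GACGC, and Psmb11 and Ccl25 are among the genes it activates. The start-site windows of the members that hold this core are shown because Foxn1 and these genes are followed together in the values that come next; the downstream start of Ccl25, which holds none, is shown for contrast. The windows come from RefSeq (GRCm38.p6), run from 250 bases before to 50 bases after the start, and are printed 5′ to 3′ on the strand of the gene with GACGC or its reverse complement GCGTC in capitals. They are chr14:54625060-54625359 for Psmb11 (plus strand), chr8:4324960-4325259 and chr8:4349338-4349637 for the 2 starts of Ccl25 (plus strand), chr10:78043561-78043860 for Aire and chr15:101712856-101713155 for Krt5 (minus strand).
Psmb11: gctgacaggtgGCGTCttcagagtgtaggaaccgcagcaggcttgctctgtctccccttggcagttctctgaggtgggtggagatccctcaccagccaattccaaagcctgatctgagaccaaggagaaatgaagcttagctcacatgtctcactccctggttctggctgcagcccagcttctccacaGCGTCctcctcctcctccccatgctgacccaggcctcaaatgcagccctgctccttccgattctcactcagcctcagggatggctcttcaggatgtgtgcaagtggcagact
Ccl25, upstream start: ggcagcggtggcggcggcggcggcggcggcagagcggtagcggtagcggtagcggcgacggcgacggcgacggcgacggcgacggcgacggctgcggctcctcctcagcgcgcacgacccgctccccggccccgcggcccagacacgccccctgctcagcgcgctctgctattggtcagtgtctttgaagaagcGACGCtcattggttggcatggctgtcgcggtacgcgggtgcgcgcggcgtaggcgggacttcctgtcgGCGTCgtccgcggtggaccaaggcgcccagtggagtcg
Ccl25, downstream start: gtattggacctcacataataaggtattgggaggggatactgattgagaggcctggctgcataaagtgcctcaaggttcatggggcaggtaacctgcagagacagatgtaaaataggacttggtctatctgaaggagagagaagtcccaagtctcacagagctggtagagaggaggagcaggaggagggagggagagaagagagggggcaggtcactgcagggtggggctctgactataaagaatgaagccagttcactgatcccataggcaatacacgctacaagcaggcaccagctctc
Aire: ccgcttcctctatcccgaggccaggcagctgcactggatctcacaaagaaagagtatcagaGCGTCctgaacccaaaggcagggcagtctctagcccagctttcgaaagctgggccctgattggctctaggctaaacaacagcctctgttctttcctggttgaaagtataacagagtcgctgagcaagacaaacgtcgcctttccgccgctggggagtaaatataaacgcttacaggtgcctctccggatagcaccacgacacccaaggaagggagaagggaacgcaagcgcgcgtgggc
Krt5: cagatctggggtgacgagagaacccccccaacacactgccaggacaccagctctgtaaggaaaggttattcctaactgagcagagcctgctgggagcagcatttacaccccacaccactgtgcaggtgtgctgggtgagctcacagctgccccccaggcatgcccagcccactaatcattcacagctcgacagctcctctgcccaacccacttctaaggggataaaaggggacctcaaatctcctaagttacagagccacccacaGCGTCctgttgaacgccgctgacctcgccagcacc

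Psmb11 and the upstream Ccl25 start each held 2 matches, and Aire and Krt5 held 1 each. No match lay in the windows of Tbata, Dll4, Ly75, Krt8 and Foxn1, and no window of Prss16 was in the table. The core is short and common: 8932 of 32851 windows (27.2%) of the same length held it on either strand, beside 4 of the 10 windows of 9 members. A match is a string of letters in the window and no measure of binding.

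In normal thymus the members spanned a wide range of levels. Per kb of exon, the median level was highest for Tbata (177 CPM per kb), Prss16 (163 CPM per kb) and Krt8 (158 CPM per kb), followed by Krt5 (93.5 CPM per kb), Ccl25 (43.8 CPM per kb), Ly75 (16.7 CPM per kb), Psmb11 (12.7 CPM per kb), Foxn1 (5.42 CPM per kb), Aire (3.57 CPM per kb) and Dll4 (2.10 CPM per kb). Neighbours in this order overlapped in their ranges over mice; Tbata was above Prss16 in 5 of 8 mice and Ly75 above Psmb11 in 5 of 8, whereas Psmb11 was above Foxn1 in all 8. Both cortical and medullary markers were thus present in the tissue labelled normal thymus, with mouse 387 the lowest of the 8 for every member except Dll4, for which it was the highest.

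**Figure D1:**
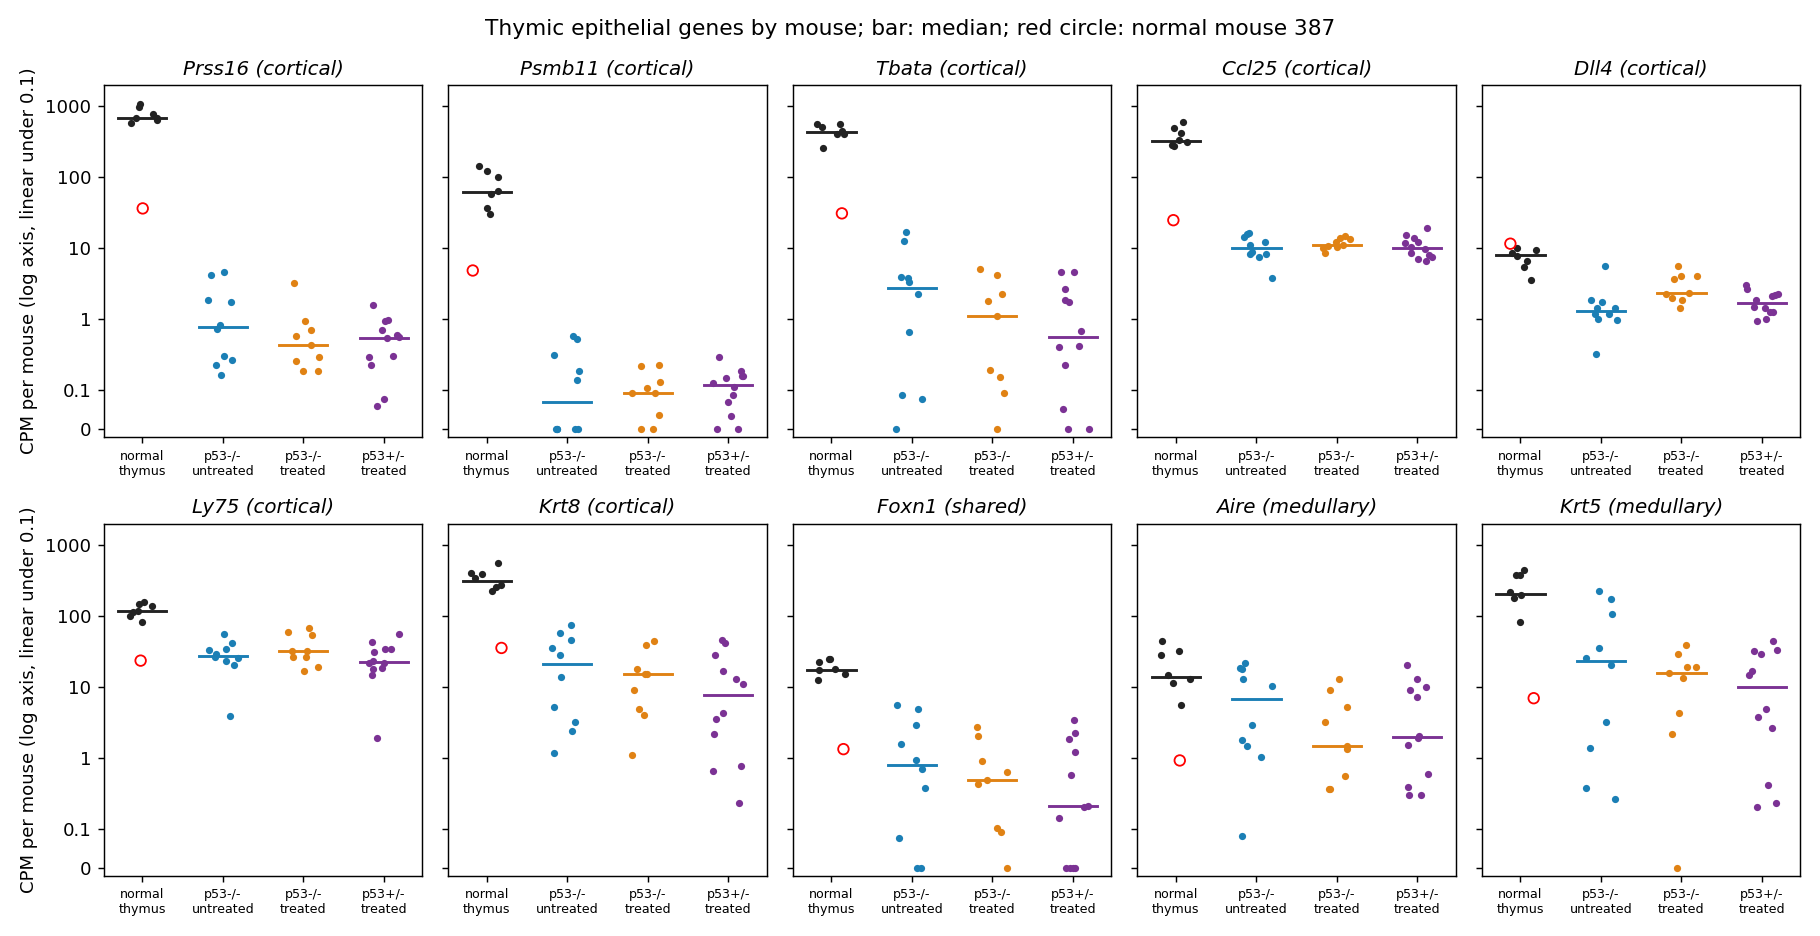
CPM per mouse (log axis, linear under 0.1) for the 10 genes in normal thymus and the 3 lymphoma groups; each point is a mouse, the bar the median and the red circle normal mouse 387. Prss16, Psmb11, Tbata and Ccl25 lie below every normal mouse in all 31 lymphomas, whereas points of the other 6 genes overlap with the normals, those of Ly75, Krt8 and Foxn1 only with mouse 387.

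Foxn1 was low in nearly all lymphomas. It measured 1.32 CPM at the lowest, 17.4 at the median and 24.6 at the highest of the 8 normal mice, with a lowest value of 12.6 CPM without mouse 387. The range was 0 to 5.55 CPM (median 0.799) in untreated p53-/- lymphoma, 0 to 2.72 (0.479) in treated p53-/- and 0 to 3.41 (0.205) in treated p53+/- lymphoma. Foxn1 was at 0 in 7 of 31 lymphomas, and all 31 lay below the 7 normals other than mouse 387. The log2 fold change against normal was -3.88 ± 0.999 (SE; edgeR quasi-likelihood test, Benjamini-Hochberg adjusted p = 0.00205) in untreated p53-/-, -4.22 ± 0.99 (adjusted p = 0.000601) in treated p53-/- and -4.44 ± 0.89 (adjusted p = 8.82e-05) in treated p53+/- lymphoma. In bulk tissue, fewer epithelial cells and less of a transcript per epithelial cell cannot be told apart, here or in what follows. The 3 comparisons share the same 8 normal mice and are not independent of each other.

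Ccl25, the chemokine of cortical epithelium that draws Ccr9-bearing progenitors, fell to a narrow band. Normal thymus held 24.7 to 605 CPM (median 326; lowest 276 without mouse 387). Untreated p53-/- lymphomas held 3.73 to 16.3 CPM (median 9.98), treated p53-/- 8.61 to 14.7 (10.9) and treated p53+/- 6.56 to 19.4 (10.02). The lymphomas did not overlap with any normal mouse, and no lymphoma was at 0. Exons of Elavl1 overlap 204 exon bases of Ccl25 (2.74%), and the part of reads from that gene in these low levels was not tested. Fold changes were close to each other, at -4.96 ± 0.32 (log2, SE; adjusted p = 7.26e-14), -4.80 ± 0.32 (2.91e-13) and -4.81 ± 0.28 (5.43e-15) in the same order of groups.

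Dll4, the Notch ligand through which cortical epithelium commits progenitors to the T lineage, fell by less than Ccl25 in each comparison. Its levels were 3.55 to 11.5 CPM (median 8.08) in normal thymus, 0.324 to 5.50 (1.31) in untreated p53-/-, 1.42 to 5.66 (2.29) in treated p53-/- and 0.942 to 2.97 (1.67) in treated p53+/- lymphoma. Every treated p53+/- lymphoma was below every normal mouse, whereas 1 untreated and 4 treated p53-/- lymphomas reached the normal range. The log2 fold changes were -2.13 ± 0.37 (adjusted p = 2.17e-05), -1.40 ± 0.36 (0.00148) and -2.09 ± 0.34 (3.23e-06). Dll4 is also made by endothelium, and the summed level of 6 endothelial markers moved with it, from a median of 251 CPM in normal thymus (range 163 to 529, or to 285 without mouse 387) to 140 CPM over all lymphomas (37.0 to 307); no marker of that list was at 0 in every mouse of a group, 3 to 4 of 6 were called lower in each comparison (beside 17.5%, 26.7% and 25.3% of all genes tested), and their part in the Dll4 values was not tested.

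Receptors for these ligands are carried by the T-lineage cells. Notch1 rose by 2.68, 3.17 and 3.13 on the log2 scale (adjusted p = 0.00287, 0.000278 and 0.000250) and Notch3 by 2.05, 1.41 and 1.88 (adjusted p = 0.00847, 0.0410 and 0.00707), opposite in sign to Dll4. Ccr9, the receptor of Ccl25, had log2 fold changes of -1.42, -1.59 and -1.45 that did not pass the test (adjusted p = 0.121, 0.0847 and 0.0901). Of the 9 receptors and signals of thymocytes tested, 1, 2 and 2 were called lower and 3 were called higher in each comparison. Over all genes 17.5%, 26.7% and 25.3% were called lower and 23.2%, 25.4% and 25.6% higher, so these counts are near the background. The lowest was Ccr7, which guides cells to the medulla, at -2.63 in treated p53-/- lymphoma (adjusted p = 1.00e-05).

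Prss16 and Psmb11 belong to the peptide machinery of cortical epithelium. Prss16 had the lowest fitted log2 fold change of the members in each comparison, with standard errors that overlapped those of Psmb11, so the order of the 2 genes is not resolved. Prss16 held 3 counts or fewer in 8 of the 31 lymphomas. Prss16, a serine protease of cortical epithelium that shapes the peptides shown on class II molecules, held 36.2 to 1083 CPM in normal thymus (median 681; lowest 586 without mouse 387). The lymphomas held 0.162 to 4.56 CPM (median 0.768) when untreated p53-/-, 0.181 to 3.17 (0.422) when treated p53-/- and 0.0588 to 1.57 (0.544) when treated p53+/-. The highest lymphoma was thus far below the lowest normal mouse in every group, and all 31 tumours were under 1% of the normal median. Prss16 fell in all 3 comparisons, with log2 fold changes of -8.74 ± 0.68 (adjusted p = 9.82e-12), -9.66 ± 0.74 (4.14e-12) and -10.05 ± 0.66 (5.51e-14).

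Psmb11 encodes the β5t subunit of the thymoproteasome, the proteasome form of cortical epithelium. Normal mice held 4.82 to 145 CPM (median 61.1; lowest 30.3 without mouse 387). In the lymphomas it was near or at the counting floor, with 0 to 0.567 CPM (median 0.0698), 0 to 0.227 (0.0915) and 0 to 0.294 (0.116) in the same order of groups. It had no count in 9 of 31 tumours and 3 counts or fewer in 19, so that levels among the lymphomas are not resolved at this depth. Log2 fold changes were -8.40 ± 0.73 (adjusted p = 1.06e-10), -9.24 ± 0.80 (5.13e-11) and -9.01 ± 0.69 (3.16e-12), and with so few counts they rest in part on the prior count of the fit. The other catalytic proteasome subunits did not share this fall: of 6 tested, Psmb10 alone was called lower in each comparison (lowest -0.65 in treated p53-/- lymphoma, adjusted p = 0.0138), and 2, 4 and 4 were called higher, with Psmb5, the β5 subunit of the standard proteasome, at 1.74 in treated p53-/- lymphoma (adjusted p = 4.11e-06).

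Tbata, named for its expression in thymus, brain and testis, is known as a protein of cortical thymic epithelium. It measured 30.8 to 570 CPM in normal mice (median 430; lowest 261 without mouse 387), and 0 to 16.8 (2.77), 0 to 4.98 (1.09) and 0 to 4.65 (0.548) CPM in the 3 lymphoma groups in the same order. No lymphoma overlapped with a normal mouse, and 26 of 31 were under 1% of the normal median. Its log2 fold changes were -6.76 ± 0.95 (adjusted p = 7.08e-07), -7.76 ± 1.02 (1.32e-07) and -7.91 ± 0.90 (6.67e-09). The tumour of mouse 881 had the highest value of all lymphomas in a single biopsy, described with the biopsies.

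Ly75 (DEC-205), an endocytic receptor used as a surface marker of cortical epithelium and also carried by dendritic cells, had small falls among the cortical members, near those of Dll4. It measured 23.4 to 159 CPM in normal mice (median 116; lowest 82.6 without mouse 387), 3.83 to 56.0 (27.6) in untreated p53-/-, 16.6 to 67.0 (32.1) in treated p53-/- and 1.92 to 55.2 (22.5) in treated p53+/- lymphoma. All 31 tumours were below the 7 other normals, and 12 were also below mouse 387. The log2 fold changes were -1.78 ± 0.40 (adjusted p = 0.000584), -1.49 ± 0.40 (0.00221) and -1.87 ± 0.37 (7.48e-05). The summed level of 7 dendritic-cell markers moved in the same direction, from a median of 62.9 CPM (33.9 to 100) in normal thymus to 18.5 CPM (2.84 to 58.0) in the lymphomas. None was at 0 in every mouse of a group, and 6 of 7 were called lower in each comparison (beside 17.5%, 26.7% and 25.3% of all genes tested). Siglech of plasmacytoid dendritic cells fell the most (-4.47 in untreated p53-/- lymphoma, adjusted p = 7.83e-07). Flt3 fell the least of those called (-1.58 in treated p53+/- lymphoma, adjusted p = 0.000518). The part of these cells in the Ly75 values was not tested.

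Krt8, a simple keratin that marks cortical epithelium, measured 35.3 to 562 CPM in normal mice (median 310; lowest 226 without mouse 387). The lymphomas held 1.17 to 74.9 CPM (median 21.04) in the untreated p53-/- group, 1.09 to 43.6 (15.1) in the treated p53-/- group and 0.232 to 45.3 (7.56) in the treated p53+/- group. All 31 lay below the 7 other normals, but tumours of 1 group differed by between 40.1 and 196-fold from the lowest to the highest. The 196-fold, in treated p53+/- lymphoma, rests on a lowest tumour with 3 counts or fewer, at the floor. Its fall in the fit was -3.91 ± 0.81 (log2, SE; adjusted p = 0.000200), -4.08 ± 0.81 (8.22e-05) and -4.31 ± 0.73 (7.69e-06).

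The medullary markers behaved less uniformly. Krt5, the keratin of medullary and basal epithelium, measured 6.90 to 440 CPM in normal mice (median 205; lowest 80.8 without mouse 387). It ranged from 0.261 to 223 CPM (median 23.1) in untreated p53-/-, 0 to 38.5 (15.7) in treated p53-/- and 0.200 to 43.7 (9.89) in treated p53+/- lymphoma. The range of the 7 other normals was reached by 3 tumours, all untreated p53-/- (mouse 881 at 223 CPM, mouse 202 at 174 CPM and mouse 120 at 108 CPM), and the other 28 stayed below it. Krt5 fell in treated p53-/- (-3.76 ± 1.03, adjusted p = 0.00267) and treated p53+/- lymphoma (-3.80 ± 0.92, adjusted p = 0.000835), and its value of -2.28 ± 1.03 in untreated p53-/- lymphoma did not pass the test (adjusted p = 0.0729). Without the tumour of mouse 881 the untreated value was -2.81 with an adjusted p of 0.0298; DESeq2 (-2.31, adjusted p = 0.0375), voom over biopsies (-4.42, 0.0167) and single-biopsy tumours alone (-4.44, 0.0185) also called it, and over all alternatives the adjusted p ran from 0.0167 to 0.180.

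Aire, the regulator of tissue-restricted antigens in medullary epithelium, showed the widest overlap with normal thymus. It measured 0.913 to 44.4 CPM in normal mice (median 13.7; lowest 5.58 without mouse 387), 0.0811 to 21.3 (6.63) in untreated p53-/-, 0.358 to 12.98 (1.48) in treated p53-/- and 0.296 to 20.6 (1.95) in treated p53+/- lymphoma. Of the 31 tumours, 12 (5, 2 and 5 by group) were at or above the lowest of the 7 other normals. The log2 fold change passed the test in treated p53-/- lymphoma (-2.13 ± 0.82, adjusted p = 0.0293) but not in untreated p53-/- (-1.55 ± 0.87, 0.152) or treated p53+/- lymphoma (-1.73 ± 0.75, 0.0510). The treated p53-/- call was lost with voom over biopsies (-3.02, adjusted p = 0.0528), with no filter (-2.13, 0.0527), without the 3 mice whose sex genes went against their labels (-2.24, 0.0501) and in single-biopsy tumours alone (-2.22, 0.0848); the treated p53+/- value passed without mouse 387 (-1.78, 0.0496), without mouse 562 (-1.73, 0.0495), with mouse 819 added to the normals (-1.75, 0.0383), with DESeq2 (-1.73, 0.0316), with no scaling factors (-1.92, 0.0371) and with only those groups in the fit (-1.67, 0.0438).

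**Figure D2:**
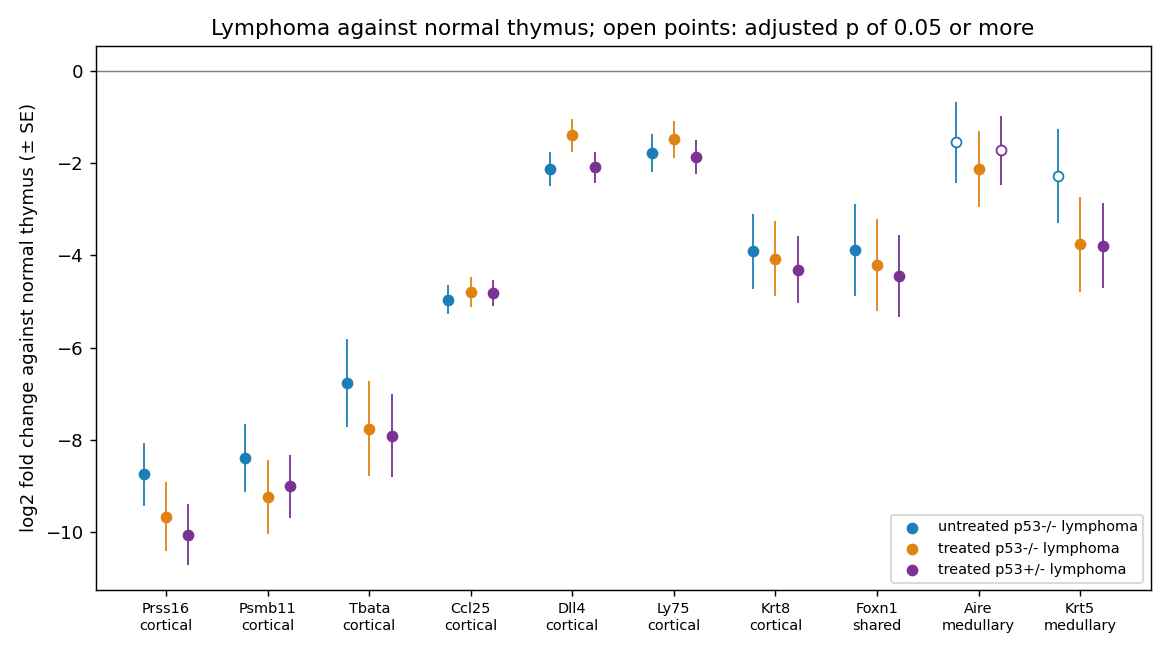
Log2 fold change of the 10 genes against normal thymus (points, with SE bars) in the 3 lymphoma groups; open points did not pass the test. Prss16 and Psmb11 lie lowest, between -8.40 and -10.05, and Aire, Ly75 and Dll4 nearest to 0.

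Counted over the list, 8 of the 10 members were called lower in untreated p53-/- lymphoma, 10 in treated p53-/- lymphoma and 9 in treated p53+/- lymphoma, and none was called higher. Over all 17843 genes tested in the same fit, 40.7%, 52.1% and 50.9% were called and 17.5%, 26.7% and 25.3% were called lower, so the members' share was above the background in each comparison. The members' counts were 8, 10 and 10 without mouse 387, 8, 9 and 9 without the 3 mice with discordant sex genes, 9, 10 and 9 without the tumour of mouse 881, and 8, 10 and 10 without that of mouse 562. Their median log2 fold changes were -3.90, -4.15 and -4.38, beside 0.08, -0.04 and -0.00067 over all genes. In 4 members (Prss16, Psmb11, Tbata and Ccl25) every lymphoma lay below all 8 normal mice, as did 3.05% of all genes tested (4.92% in untreated p53-/-, 9.3% in treated p53-/- and 6.56% in treated p53+/- lymphoma by itself). For 7 members (Ly75, Krt8 and Foxn1 in addition) every lymphoma lay below the 7 normals other than mouse 387, as did 4.06% of all genes (6.54%, 12% and 9% by group). Leaving out scaling factors moved the median of all genes in untreated p53-/- lymphoma from 0.08 to -0.05 and the called genes from 4139 higher and 3131 lower to 3105 higher and 3551 lower, and no member changed direction against normal under any of 15 alternatives. Restricting the lymphomas to the 18 tumours with 1 biopsy moved the untreated p53-/- values by more than 1.5-fold for Prss16 (-9.79), Psmb11 (-9.47), Tbata (-8.75), Krt8 (-5.14), Foxn1 (-5.39), Aire (-2.49) and Krt5 (-4.44), in each case further below normal; in treated p53+/- lymphoma it did so for Tbata (-8.72), Krt8 (-5.31), Aire (-2.50) and Krt5 (-5.09). Voom over biopsies gave values lower by more than 1.5-fold for Tbata, Krt8, Krt5 and Foxn1 in all 3 comparisons, down to -9.14 for Tbata in treated p53-/- lymphoma.

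Expressed as a percentage of the normal median, the members separated further. Over the 31 lymphomas the median was 0.0810% for Prss16 (range 0.00864 to 0.669), 0.173% for Psmb11 (0 to 0.929) and 0.252% for Tbata (0 to 3.90). It was 2.75% for Foxn1 (0 to 31.9), 3.26% for Ccl25 (1.14 to 5.96), 4.17% for Krt8 (0.0747 to 24.2) and 7.62% for Krt5 (0 to 108). Aire stood at 14.6% (0.593 to 156), Dll4 at 22.9% (4.01 to 70.1) and Ly75 at 22.97% (1.66 to 58.0). Within single mice the percentage was higher for Aire, Krt8, Ccl25, Dll4 and Ly75 than for Prss16 in all 31 tumours, and higher for Krt5 in 30. It was higher for Foxn1 in 24 and for Tbata in 22. Foxn1 held 3 counts or fewer in 10 tumours (0 in 7), Tbata in 11 and Prss16 in 8, so their order is not resolved in all tumours. Psmb11 was left out of this order, since its levels in the lymphomas are not resolved.

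**Figure D3:**
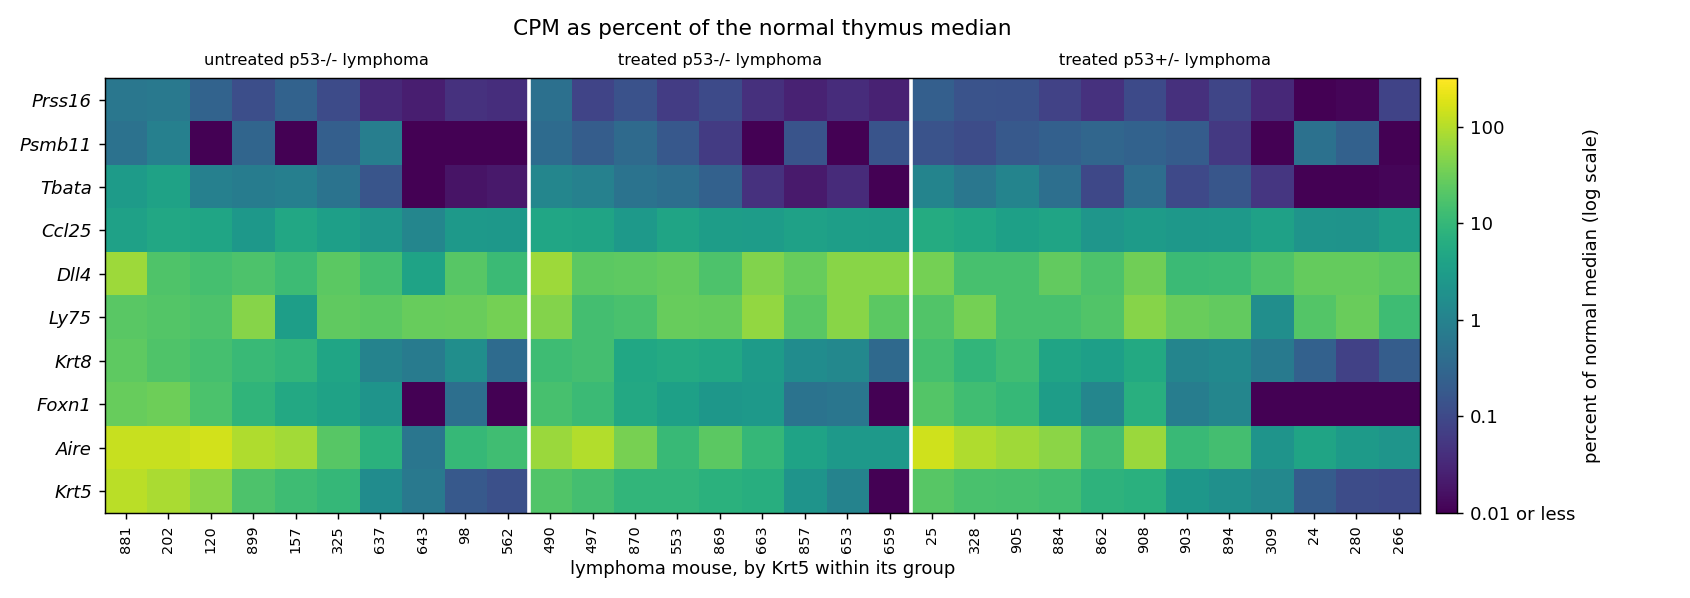
Each column is a lymphoma mouse, ordered by Krt5 within its group, and each row a gene; the colour gives its CPM as a percentage of the normal thymus median. Prss16 and Psmb11 stay under 1% in all 31 tumours, while Aire reaches 156% and Krt5 108%.

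Cortical members were set against medullary ones as the log2 ratio of the summed CPM of the 7 cortical genes to that of Aire and Krt5, with 0.1 CPM added to each; Foxn1, which works in both, was left out. The ratio was 2.08 to 4.602 in normal thymus (median 3.12), -0.83 to 4.71 in untreated p53-/- (1.23), 0.92 to 6.52 in treated p53-/- (1.73) and 0.45 to 5.92 in treated p53+/- lymphoma (2.23). The highest values depend in part on the pseudocount: with 1 CPM added they were 4.18, 4.99 and 4.78 in the 3 lymphoma groups, and the medians were 1.203, 1.69 and 2.06. The highest ratio, in mouse 659, had a cortical sum of 42.3 CPM and a medullary sum of 0.362 CPM. Prss16 and Psmb11 together made up 0.272 CPM of that cortical sum. By this measure 17 of 31 tumours fell below all 8 normals and the ranges overlapped. The cortical sum includes Ly75 and Krt8, whose expression is not limited to cortical epithelium; without them the medians were 2.67, -0.61, -0.17 and -0.043 and 23 of 31 tumours lay below all normals.

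Prss16 and Psmb11 alone as the cortical side, a choice made after the values were seen, gave medians of 1.69 in normal thymus and -4.46, -4.29 and -4.17 in the lymphoma groups. All 31 tumours (-6.05 to 0.12) were then below all 8 normals (0.76 to 3.26), and 30 of 31 were below 0. The choice of cortical genes thus set how far the groups separated, and no p is given for a ratio over genes picked with results known.

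**Figure D4:**
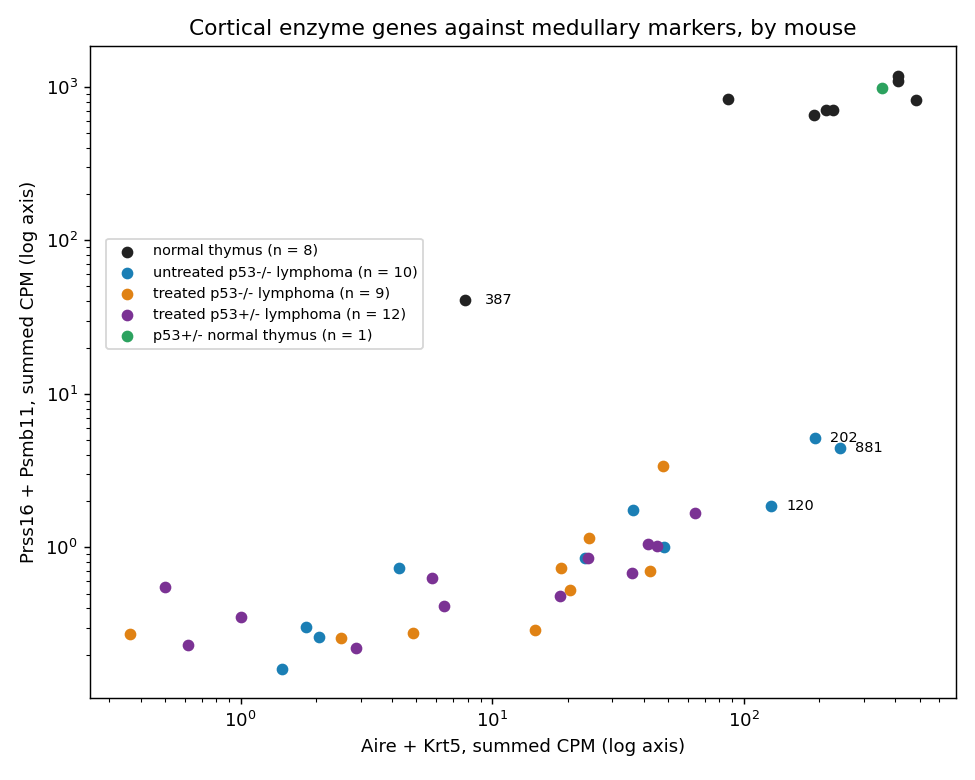
Summed CPM of Prss16 and Psmb11 (vertical) against summed CPM of Aire and Krt5 (horizontal), both on log axes, with a point per mouse coloured by group. All normals but mouse 387 lie high on both axes, whereas tumours that overlap with them along the medullary axis stay far below them on the cortical axis.

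Among the other epithelial genes, taken from lists beside the 10 members, none was called higher than in normal thymus, and the share called lower differed between lists. Beside these counts stand 17.5%, 26.7% and 25.3% of all genes called lower, in the same order of comparisons. Of 6 further cortical genes 5, 6 and 6 were called lower, from Il7, the survival cytokine of thymocytes (-4.15 in treated p53-/-, adjusted p = 4.31e-06), to Ctsl, the class II cathepsin of cortical epithelium (-2.30 in treated p53+/-, adjusted p = 4.83e-07). Of 10 genes shared by thymic epithelium 8 were called lower in each comparison, from Pax1, a factor of the pharyngeal pouch (-6.16 in treated p53+/-, adjusted p = 2.03e-07), to the adhesion gene Cdh1 (-1.89 in untreated p53-/-, adjusted p = 0.0276). Epcam had values of -1.005, -0.70 and -1.29 and did not pass the test in any of the 3 (adjusted p = 0.222, 0.368 and 0.0671). Further medullary genes were called lower in 3, 7 and 6 of 9 tested, with Krt17 lowest (-3.73 in treated p53+/-, adjusted p = 0.00127) and Tnfrsf11a, the RANK receptor, highest (-0.998, adjusted p = 0.0316).

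Rare medullary cells and their products were followed by fewer genes. The same shares of all genes called lower (17.5%, 26.7% and 25.3%) stand beside their counts. Of 5 tuft-cell genes tested 2, 4 and 4 were called lower, among them Pou2f3, the tuft-cell master regulator (-3.15 in treated p53-/-, adjusted p = 0.000443), and Avil (-1.73 in untreated p53-/-, adjusted p = 0.0163). Of the 3 tissue-restricted antigens with enough counts, Crp was called lower in each comparison (-2.72, -3.79 and -3.39) and the other two in none; Mup1 had no count in any normal mouse. Median log2 fold changes of these lists were below 0 in all 3 comparisons. Adipocyte markers moved with all of them, with a summed level of 839 to 7916 CPM in the 8 normals and 30.3 to 188 CPM in the 31 lymphomas; 6 of 6 were called lower in each comparison, and their part in the epithelial differences was not tested. In mouse 819 that sum was 125 CPM, within the lymphoma range, while Prss16 was at 887 CPM, Psmb11 at 89.2 and Krt5 at 320.

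Markers of other cell types in the tissue differed in how many were called. All genes tested were called lower in 17.5%, 26.7% and 25.3% and higher in 23.2%, 25.4% and 25.6%. The counts of thymocyte and fibroblast genes called lower are near these shares. Of 7 thymocyte genes 2, 1 and 2 were called lower and 0, 1 and 1 higher, from the coreceptor gene Cd4 (-2.49 in treated p53-/-, adjusted p = 0.000119) to Ptcra, of the pre-T-cell receptor (2.42 in treated p53-/-, adjusted p = 0.0335). Their summed level had a median of 6579 CPM in normal thymus (870 to 8615, lowest 5379 without mouse 387) and 3221 CPM over all lymphomas (190 to 6410). Of 6 B-cell genes 0, 6 and 5 were called lower, from Pax5 (-5.03 in treated p53-/-, adjusted p = 0.00708) to Cd79b (-2.36 in treated p53+/-, adjusted p = 0.0163); without the tumour of mouse 881, 3 were called lower in untreated p53-/- lymphoma. Of 6 macrophage genes C1qa alone was called, in treated p53-/- lymphoma (-0.68, adjusted p = 0.0464). The endothelial genes called ran from Kdr (-2.34 in treated p53+/-, adjusted p = 5.46e-05) to Emcn (-1.16 in treated p53-/-, adjusted p = 0.0411). Of 6 fibroblast genes 1, 2 and 1 were called lower and 2, 1 and 1 higher, with Dcn lowest (-2.44 in treated p53-/-, adjusted p = 7.56e-05) and Pdgfrb highest (2.45 in untreated p53-/-, adjusted p = 0.0121). Mesothelial genes were called lower in 4, 5 and 5 of 5, from Upk3b (-6.00 in treated p53+/-, adjusted p = 2.72e-08) to Msln (-1.50 in untreated p53-/-, adjusted p = 0.0468), and the adipocyte genes ran from Ucp1 (-10.3 in untreated p53-/-, adjusted p = 1.54e-09) to Fabp4 (-4.54 in treated p53+/-, adjusted p = 3.24e-11). Pth, the parathyroid hormone gene and the 1 of its list with enough counts, was called lower in each comparison (-5.45, -7.50 and -3.54).

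Muscle genes stood out in 1 tumour. Of 5 tested 4 were called higher in untreated p53-/- lymphoma, Acta1 the most (6.30, adjusted p = 0.00226), and without the tumour of mouse 562 none was called higher (Acta1 0.30, adjusted p = 0.797). In treated p53+/- lymphoma Myh4 was called lower (-3.26, adjusted p = 0.0406). The tumour of mouse 562 held Krt5 at 0.261 CPM and Krt8 at 1.17 CPM, the lowest of its group, and no count of Foxn1 or Psmb11.

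Between the lymphoma groups no member was called. In the fit of the 31 lymphomas 9 members had enough counts to be tested (Psmb11 did not) and none passed in any of the 3 comparisons, beside 0% of all 16389 genes. At an unadjusted p under 0.05 edgeR had 1917, 864 and 1037 genes for treated against untreated p53-/-, treated p53+/- against treated p53-/- and treated p53+/- against untreated p53-/-, none of them a member. DESeq2 called 76, 12 and 3 genes and voom over biopsies 39, 1 and 1. For treated against untreated p53-/- the members ran from Krt5 at -1.22 ± 1.25 to Dll4 at 0.79 ± 0.39 (log2, SE; adjusted p = 0.431). Treated p53+/- against treated p53-/- ran from Dll4 at -0.68 ± 0.34 (adjusted p = 0.940) to Aire at 0.35 ± 0.76, and treated p53+/- against untreated p53-/- from Krt5 at -1.26 ± 1.19 to Ccl25 at 0.26 ± 0.22. The standard errors of Krt5 exceed a 2-fold change, so differences of that size between groups were not resolved; 18 of the 27 member differences changed sign under some alternative and none was called under any of 13.

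Biopsies of the same tumour could differ widely in the keratins and in Aire, and little in Ccl25, Dll4 and Ly75. Over the 13 tumours with several biopsies, the Wilson 95% intervals of the lowest and the highest biopsy lay apart for Krt5 and Krt8 in all 13, for Tbata in 12, Aire in 11, and Foxn1, Prss16, Ccl25 and Ly75 in 10. A 10-fold or larger gap, with the lowest biopsy set to 3 counts where it was under that floor, was found in 11 tumours for Krt5, 11 for Krt8, 9 for Aire, 9 for Tbata, 7 for Foxn1 and 3 for Prss16. Ccl25, Dll4 and Ly75 reached it in none, with gaps of 1.22 to 3.92-fold, 1.40 to 3.51-fold and 1.095 to 3.15-fold. Psmb11 intervals overlapped in all 13 tumours, since 57 of the 72 lymphoma libraries held 3 counts of it or fewer. These biopsies share a tumour and are not replicates of a condition.

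**Figure D5:**
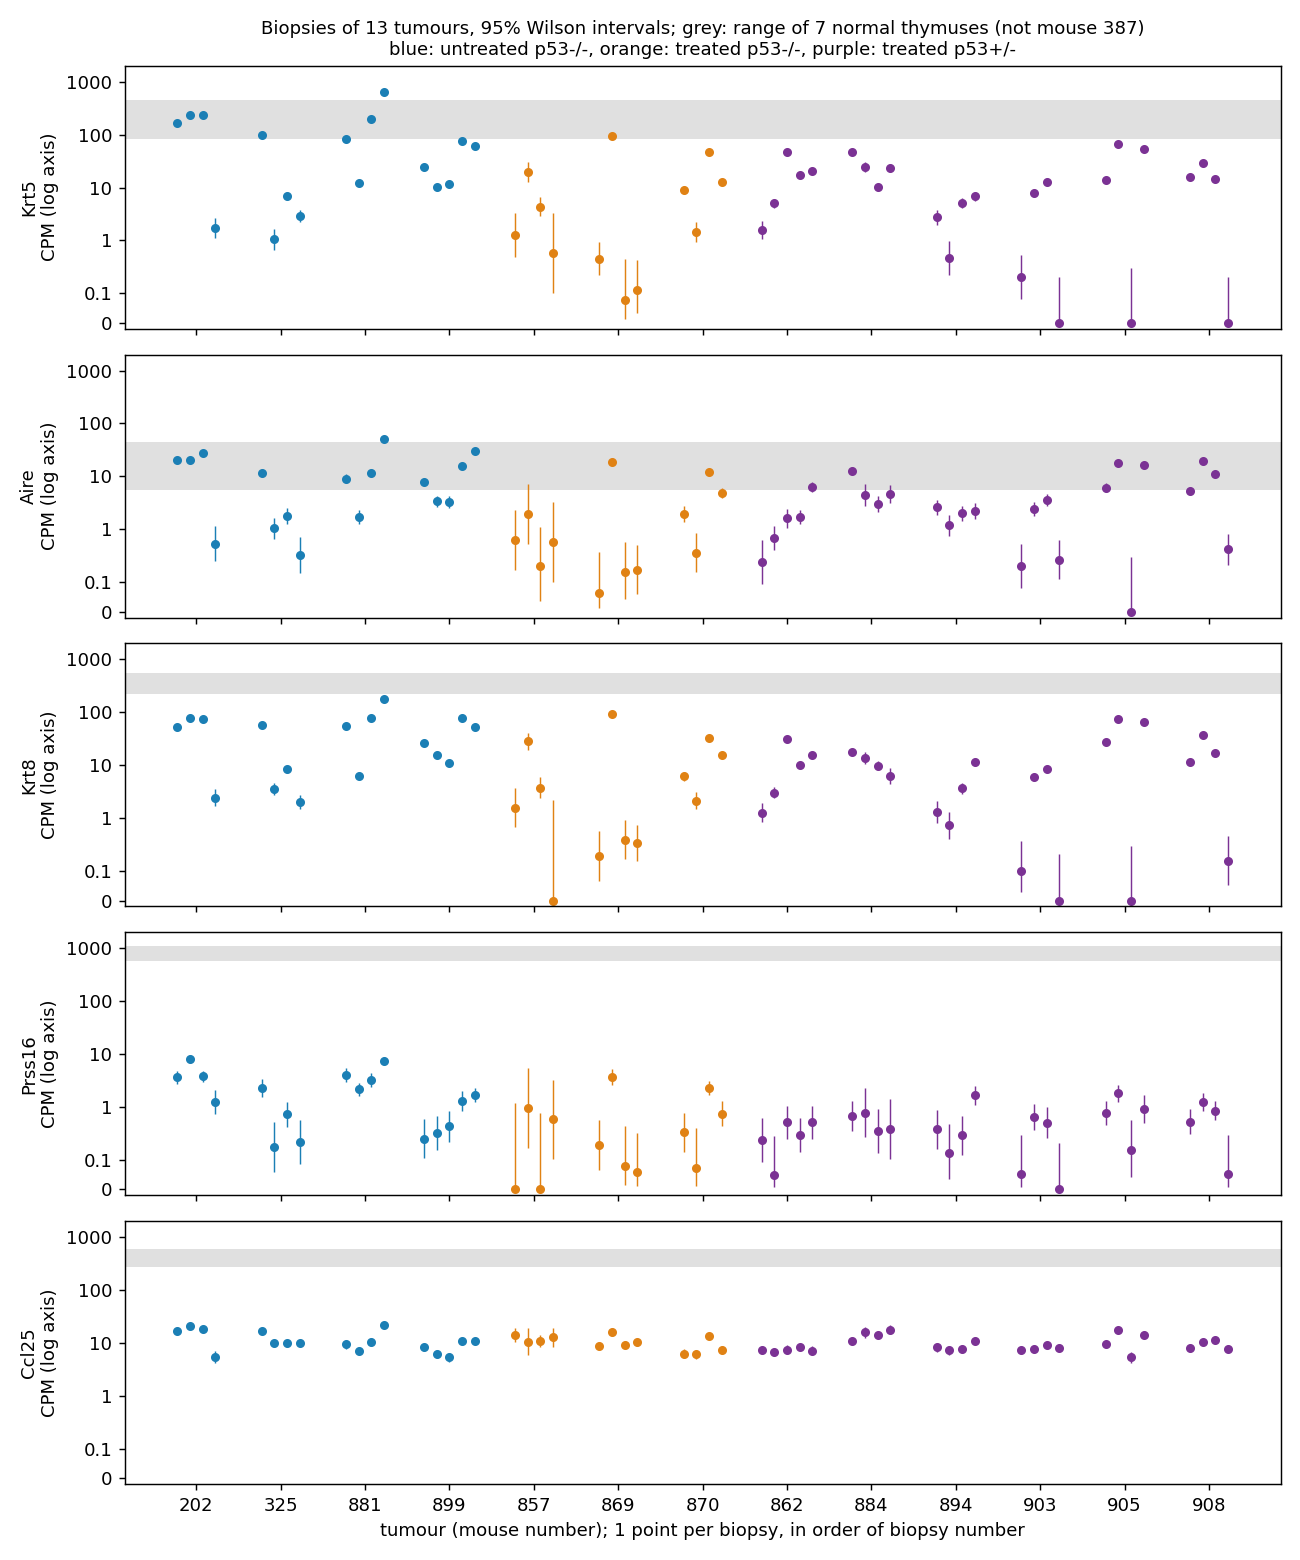
CPM (log axis) of Krt5, Aire, Krt8, Prss16 and Ccl25 in each biopsy of the 13 tumours with several biopsies, as points with Wilson 95% intervals in order of biopsy number; the grey band is the range of the 7 normals other than mouse 387. Krt5 differs by at least 10-fold between biopsies in 11 of the 13 tumours and enters the band in some, while Prss16 stays below its band in every biopsy.

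In the tumour of mouse 869 (treated p53-/-) Krt5 was at 0.452, 95.1, 0.0785 and 0.115 CPM in the 4 biopsies, Krt8 at 0.194, 91.8, 0.392 and 0.346 CPM, and Aire at 0.0646, 18.9, 0.157 and 0.173 CPM. The second biopsy thus held Krt5 and Aire within the range of the 7 other normals and Krt8 below it, while the other pieces were near 0 for all 3. This mouse is one of the 3 whose sex genes went against the label. In the same biopsy Prss16 was at 3.73 CPM (95% interval 2.66 to 5.24) against a normal median of 681.

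In the tumour of mouse 202 (untreated p53-/-) Krt5 was at 168, 229, 238 and 1.71 CPM, so that 3 pieces were at the level of normal thymus (median 205) and the fourth was not. Aire followed with 20.3, 20.5, 27.3 and 0.540 CPM and Foxn1 with 6.92, 6.15, 7.54 and 0.0899 CPM. Krt17, a medullary keratin, was at 72.6, 102, 87.6 and 1.17 CPM, whereas Epcam was at 81.9, 91.7, 93.5 and 81.9 CPM and did not drop in the fourth piece. The highest Prss16 and Psmb11 values among all lymphoma libraries came from this tumour, at 8.03 CPM (1.18% of the normal median) and 0.874 CPM (1.43%).

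In the tumour of mouse 881 (untreated p53-/-), the one with B-cell markers, Krt5 was at 81.3, 12.3, 199 and 631 CPM. The last piece (Wilson 95% interval 619 to 644 CPM) was at 307% of the normal median and above every normal mouse. It also held Aire at 51.8 CPM (48.4 to 55.6), above the highest normal value of 44.4, Foxn1 at 13.7 CPM (78.7% of the normal median), Krt8 at 181 CPM (58.4%) and Tbata at 36.4 CPM (8.47%). Prss16 was at 7.48 CPM (6.23 to 8.99) and Psmb11 at 0.656 CPM in that piece. B-cell markers summed to 3580, 4101, 2627 and 2341 CPM in the 4 pieces; they were high in all, highest in the second and lowest in the fourth. Dendritic-cell markers (26.2, 11.3, 23.05 and 52.7 CPM), macrophage markers (899, 623, 924 and 1129 CPM) and thymocyte markers (169, 138, 209 and 263 CPM) were, like Krt5, lowest in the second piece and highest in the fourth. Endothelial markers (347, 368, 255 and 233 CPM) ran the other way, and fibroblast markers (667, 599.9, 373 and 277 CPM) were also lowest in the fourth. The part of these cell types in the epithelial values was not tested.

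Gaps were seen in other tumours as well, treated p53+/- ones among them. Krt5 was at 98.8, 1.06, 7.03 and 2.91 CPM in the untreated p53-/- tumour of mouse 325. In treated p53+/- tumours it was at 13.7, 65.0, 0 and 52.4 CPM in mouse 905 and at 15.5, 28.6, 14.6 and 0 CPM in mouse 908, where a count of 0 allows up to 0.235 and 0.157 CPM. In mouse 908 Ly75 was at 55.8, 64.1, 37.4 and 70.5 CPM, highest in the piece without Krt5.

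The members' highest biopsies tended to be shared, in an uneven way. The biopsy with the highest Krt5 also held the highest Krt8 in 12 of 13 tumours, Foxn1 in 10, Aire in 10, Prss16 in 9 and Tbata in 8. The count was 7 for Ccl25, 6 for Dll4 and 5 for Ly75, with 4 or 5 biopsies to choose from per tumour. The highest biopsy held 3 counts or fewer in 2 tumours for Prss16 and in 1 each for Tbata, Foxn1 and Aire; for Psmb11 it did so in 6, and which biopsy was highest is not resolved. Scaling the libraries with TMM factors gave the same counts. Across all 72 lymphoma libraries, 25 reached the lowest of the 7 other normals for Aire, 10 for Dll4, 9 for Krt5 and 1 for Foxn1; none did for Prss16, Psmb11, Tbata, Ccl25, Krt8 or Ly75.

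Across the 31 lymphoma mice the log2 levels of Foxn1, Tbata, Krt8, Krt5, Aire and Prss16 were related. Pearson's r over these mice, which share library totals and the scaling, was 0.96 for Tbata and Foxn1, 0.94 for Krt8 and Foxn1, 0.93 for Krt5 and Krt8, 0.93 for Foxn1 and Aire, and 0.88 for Prss16 and Tbata; without the 2 mice farthest from the median these 5 values were 0.85 to 0.95. The lowest pair among the 6 genes was Prss16 and Krt5 at 0.79 (0.73 without the 2 farthest mice). Ccl25 was less close to Krt5 (r = 0.56), and Dll4 (0.02) and Ly75 (-0.06) were not related to it in this way. Psmb11 had too few counts for its values to carry weight. Tbata, Foxn1 and Prss16 held 3 counts or fewer in 11, 10 and 8 of the 31 mice, so their r values rest in part on values at the floor.

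The genes most like each member over the 31 lymphomas were sought among all genes tested, for members with a median of at least 1 CPM in the lymphomas. Krt5 was most like Krt17 (Pearson's r = 0.975, Spearman's rho = 0.976), Alox12e (r = 0.959) and Prom2 (0.952). Krt8 was most like Krt18 (0.967), its keratin partner, Fermt1 (0.957) and Krt14 (0.953). For Tbata they were Crip3 (0.964), Alox12e (0.961) and Fezf2 (0.960), and for Aire Grin2c (0.948), 2210407C18Rik (0.942) and Gsta2 (0.942).

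Dll4 was most like Robo4 (0.853), Tie1 (0.773) and Clec1a (0.764), all genes of endothelium. Ccl25 was most like Clrn3 (0.750), Myo1a (0.744) and Ifi27l2a (0.735). Ly75 was most like Nsmaf (0.773), Clcn4 (0.736) and Mfsd2a (0.671), values that were 0.17, 0.38 and 0.43 without the 2 mice farthest from the median. Over the 8 normal mice the closest genes reached r = 0.958 to 0.996 for the 10 members, and 0.784 to 0.993 without mouse 387; among them were Prom2 for Aire (0.992), Apoa4 for Krt5 (0.995), Slc7a11 for Krt8 (0.995) and Cib2 for Dll4 (0.993). These are descriptions of ranked lists over few mice, and carry no test.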

How the data were processed

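RNA was sequenced from 81 frozen thymic samples of 40 mice after joint extraction of DNA and RNA, as the labels describe. One table holds expected counts per gene and library, deposited by the authors, estimated with RSEM and not scaled between libraries; 14.25% of its values were not whole. The submitters' processing notes name CASAVA 1.8, fastp, STAR 2.7.2b, RSEM 1.1.17 and build mm10; the annotation, the strand setting and any sequencing batch are not given in the sources used here. RSEM shares ambiguous reads between genes, so overlapping genes are the uncertain ones.

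Expected counts were rounded to whole numbers, and biopsies of a tumour were summed per mouse. All 81 columns were used, 0 were set aside, and 0 pairs were identical. CPM used the table's library totals. Single-library intervals are Wilson 95% and the floor is 3 counts, for counting error only, since no molecular identifiers are named. Groups were compared with edgeR 4.0.16, run under R 4.3.3 (TMM, filterByExpr, robust quasi-likelihood, labelled sex as covariate, prior count 2), with Benjamini-Hochberg adjusted p-values over all genes and a threshold of 0.05. The first fit held the normal thymuses and 3 lymphoma groups (17843 genes) and the second the 31 lymphomas (16389 genes). P-values measure the spread between labelled mice. The code was tested on simulated data. Coordinates and exon lengths came from GENCODE M21 by Ensembl gene ID (51633 of 51826 matched), and promoter windows from RefSeq.

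Alternatives were RLE size factors, no scaling factors, DESeq2 1.42.0, limma 3.58.1 (voom, biopsies as correlated libraries), no filter, sex left out or taken from expression, mouse 387 left out, mouse 819 added, the 3 mice with discordant sex genes left out, single-biopsy tumours alone, the shallow libraries left out, only the groups compared, and, for the ratio of cortical to medullary genes, a pseudocount of 1 CPM in place of 0.1, TMM scaling and no Krt8 or Ly75. Leaving out the tumour of mouse 881, leaving out that of mouse 562 and the ratio with Prss16 and Psmb11 alone were chosen after seeing the data.

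The members and all gene lists were chosen with earlier results of these data known. Named were all 10 members, the lowest and highest called gene of each other list, the receptors Ccr9, Notch1 and Notch3, and the 3 genes most like each member; Epcam and genes of single biopsies were named after their values were seen. Marker lists held 6 adipocyte, 6 B-cell, 7 thymocyte, 7 dendritic, 6 endothelial, 6 macrophage, 6 fibroblast, 5 mesothelial, 5 muscle and 3 parathyroid genes.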

Additional observations from a re-analysis of the deposited data

Results flagged for a closer look

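Of 33 sets of values examined (the log2 CPM of each member, and the log2 ratio of cortical to medullary genes, over the mice of the normal, untreated p53-/- and treated p53-/- groups), 11 had a mouse far from the others by Dixon's gap criterion; chance alone flags about 1 in 20 sets. Of these, 8 came from normal mouse 387, whose values were low: Prss16 36.2, Psmb11 4.82, Tbata 30.8, Ccl25 24.7, Ly75 23.4, Krt8 35.3, Krt5 6.90 and Foxn1 1.32 CPM. The sums of adipocyte (7916 CPM), B-cell (1255 CPM), fibroblast (2245 CPM), mesothelial (789 CPM), macrophage (1870 CPM) and endothelial markers (529 CPM) in this mouse were above those of the other 7 normals, and the sum of thymocyte markers (870 CPM) was below them (5379 CPM or more); their part in the low epithelial values was not tested.

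The other 3 were lymphomas with a low value. Ccl25 was at 3.73 CPM in mouse 643 and Ly75 at 3.83 CPM in mouse 157, both untreated p53-/-. Krt5 was at 0 CPM in mouse 659 (treated p53-/-), where a count of 0 allows up to 0.272 CPM.

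The p53+/- normal thymus of mouse 819, left out of the main comparisons, had Foxn1 at 25.8 CPM, above the highest of the 8 p53+/+ normals (24.6 CPM). It is a single animal and the difference was not tested.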

How the results depend on the processing

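Of 528 alternative values, taken over the members' differences from normal and, between lymphoma groups, over the lowest and highest member of each comparison, 510 kept their direction and side of the threshold, 4 lost their call, 10 gained one and 4 changed sign; those 4 were differences between lymphoma groups that had not passed the test, Krt5 in treated against untreated p53-/- lymphoma (0.27 with voom over biopsies, 1.90 in single-biopsy tumours), Aire in treated p53+/- against treated p53-/- (-0.85 in single-biopsy tumours) and Krt5 in treated p53+/- against untreated p53-/- (0.56 with voom). Over all 27 member differences tested between lymphoma groups, 18 changed sign under at least 1 of up to 13 alternatives and none was called; Krt8 in treated against untreated p53-/- did so in 7, and Tbata there went from -0.74 to 2.27 in single-biopsy tumours. Of the 27 member differences called against normal, 26 were called under every one of 15 alternatives, Aire in treated p53-/- lymphoma being the exception. The number of members called stayed within 1.5 times in all 84 alternative values. Genes called between lymphoma groups, 0 in edgeR, were 76 with DESeq2 and 39 with voom for treated against untreated p53-/-, 12 and 1 for treated p53+/- against treated p53-/-, and 3 and 1 for treated p53+/- against untreated p53-/-, where no filter gave 7 and leaving out sex 21. The median ratio of cortical to medullary genes was 1.69, -4.46, -4.29 and -4.17 (normal, untreated p53-/-, treated p53-/-, treated p53+/-) with Prss16 and Psmb11 alone and 2.67, -0.61, -0.17 and -0.043 without Krt8 and Ly75; the cause of these changes is the genes summed, and that of the others was not tested. Without the tumour of mouse 881, Krt5 was -0.68 in treated and -0.73 in treated p53+/- against untreated p53-/- lymphoma. Leaving out sex moved the untreated p53-/- values of Foxn1 to -3.17 and of Aire to -0.93 against normal. Depth limits Psmb11 most, at 3 counts or fewer in 57 of 72 lymphoma libraries. No paired analysis was possible because the labels number animals and the groups share no replicate numbers.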
